A study of Homo sapiens with 16 samples.

Results

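The RNA of 10 genes that shape the neuronal cytoskeleton was followed in a neuroblastoma line given palbociclib, retinoic acid or both. The genes were the 4 stathmins (STMN1, STMN2, STMN3 and STMN4), the 5 neuronal intermediate filament genes (NEFL, NEFM, NEFH, INA and PRPH) and the growth cone gene GAP43. They were chosen by family membership, by symbol, with no measured value in the rule but with earlier results of these data known. All 10 were found among the 27037 gene symbols counted, and all 10 were among the 15415 genes with enough counts to be tested. The lowest count of any of them in any sample was 159.

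The cells were SK-N-BE(2)C, an established human neuroblastoma line with amplified MYCN and an adrenergic expression programme. They were grown in DMEM/F12 medium with 10% serum and treated for 5 days with the vehicle DMSO, with 1 µM palbociclib (PB), which inhibits the CDK4 and CDK6 kinases of the cell cycle, with 10 µM retinoic acid (RA), or with both agents at those doses (PB+RA). Each of the 4 groups held 4 replicates, each a separate experiment on cells of another passage, so the p-values describe variation within a single cell line. Polyadenylated RNA was sequenced, and levels are given as CPM, the counts scaled to the same total in every sample.

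The samples held 19.5 to 31.6 M counts each. All 7 adrenergic markers examined were counted in every sample. Their CPM sum was 2269 to 2521 in DMSO, 2898 to 3134 in PB, 2563 to 2907 in RA and 2761 to 3682 in PB+RA. These 7 did not move together either. After PB 3 rose (16.9% of all tested genes), and after PB+RA 2 rose (24%). After RA 2 rose and 1 fell (10.8% and 2.54%). GATA3 rose after PB (log2 fold change 0.79) and fell after RA (-0.89). The 6 mesenchymal neuroblastoma markers with counts summed to 307 to 428 CPM in DMSO, 314 to 471 CPM in PB, 744 to 1144 CPM in RA and 573 to 905 CPM in PB+RA. FN1 had the highest mean of the 6 in every group, at 175 CPM in DMSO, 174 CPM in PB, 733 CPM in RA and 519 CPM in PB+RA. CD44 was at a mean of 88.9 CPM in DMSO and 150 CPM in PB. The mesenchymal list did not move as a whole. After RA 3 of the 6 rose (10.8% of all tested genes) and the other 3 were not called. After PB 1 rose (CD44) and 3 fell (SNAI2, YAP1 and TWIST1), against 16.9% and 11.3% of all tested genes. Schwann cell markers stayed between 18.4 and 54.6 CPM in sum and haematopoietic markers between 3.39 and 6.55 CPM, and the defining Schwann factor SOX10 reached at most 1 count in any sample. The part of these markers in the results below was not tested. In bulk RNA, fewer cells expressing a gene and less RNA per cell cannot be told apart.

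Stathmins bind soluble tubulin and promote the shortening of microtubules. STMN1 is the cytosolic form, abundant in dividing cells, whereas STMN2 (SCG10), STMN3 (SCLIP) and STMN4 (RB3) carry an extra palmitoylated end that anchors them to membranes of the Golgi and the growth cone in neurons. Neurofilaments, the intermediate filaments of axons, assemble from the light (NEFL), medium (NEFM) and heavy (NEFH) proteins together with alpha-internexin (INA) or, in peripheral neurons, peripherin (PRPH). GAP43 is a palmitoylated substrate of protein kinase C that accumulates at the inner membrane of growing axon tips.

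Upstream sequences are shown for GAP43, INA and PRPH, which all rose after PB, and for STMN1, which fell. They are the RefSeq promoter windows of build GRCh38.p14, printed 5′ to 3′ on the strand of the gene and ending at the base before the transcription start: chr3:115623260-115623509 (plus strand) for GAP43, chr10:103276888-103277137 (plus) for INA, chr12:49294897-49295146 (plus) for PRPH and chr1:25906467-25906669 (minus) for STMN1. For STMN1 the 47 bases nearest the start were left out because they are exonic in another STMN1 transcript, so 203 of 250 bases are shown. Capitals mark letters that matched a searched motif.
GAP43: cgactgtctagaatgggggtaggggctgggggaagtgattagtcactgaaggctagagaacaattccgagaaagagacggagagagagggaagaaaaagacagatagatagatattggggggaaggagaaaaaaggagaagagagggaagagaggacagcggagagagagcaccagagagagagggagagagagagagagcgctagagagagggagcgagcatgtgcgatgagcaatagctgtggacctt
INA: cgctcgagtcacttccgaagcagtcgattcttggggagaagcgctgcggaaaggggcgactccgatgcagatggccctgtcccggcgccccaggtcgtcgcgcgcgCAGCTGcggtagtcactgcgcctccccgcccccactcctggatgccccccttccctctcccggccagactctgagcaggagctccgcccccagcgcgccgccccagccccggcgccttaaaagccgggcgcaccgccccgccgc
PRPH: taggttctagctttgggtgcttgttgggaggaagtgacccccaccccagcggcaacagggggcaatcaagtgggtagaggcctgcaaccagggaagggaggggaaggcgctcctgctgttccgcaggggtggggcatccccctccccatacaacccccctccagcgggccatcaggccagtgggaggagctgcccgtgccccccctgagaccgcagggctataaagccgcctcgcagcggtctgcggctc
STMN1: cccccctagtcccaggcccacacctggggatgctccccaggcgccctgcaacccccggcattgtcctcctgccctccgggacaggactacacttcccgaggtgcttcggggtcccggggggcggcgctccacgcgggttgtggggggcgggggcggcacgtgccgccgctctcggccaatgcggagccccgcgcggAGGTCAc

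Each window of 250 bases was searched on both strands for an E2F motif (TTTCCCGC, TTTGGCGC, TTTCGCGC or TTTGCCGC), the E-box CAGCTG and the retinoid half-site AGGTCA, and no match overlapped another. Of all 35116 RefSeq windows, 2.79% held the E2F motif, 14% the E-box and 12.1% the half-site. The INA window held the E-box 144 bases before its start. The STMN1 window at the canonical start held the half-site 54 bases before the start and an E2F match, TTTGGCGC, 38 bases before it, inside the 47 bases not printed. Of the other 2 STMN1 windows in the table, at other starts, one held an E2F match (TTTCCCGC, 250 bases before its start) and the other held no match. None of these letters occurred in the GAP43, PRPH or STMN3 window. Matches in windows of STMN2, STMN4, NEFL, NEFM and NEFH were not examined here. The search therefore leaves out STMN2, STMN4 and NEFM, which also rose after PB. The windows of GAP43, INA, PRPH and STMN1 had a GC content of 51.6%, 72.8%, 66.8% and 73.2% over the whole 250 bases. A match describes letters in a window, and no factor binding was measured here.

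PB raised 6 of the 10 genes and lowered 1, while RA alone raised 1 and lowered 1. A gene was called when edgeR's quasi-likelihood test gave an adjusted p (Benjamini-Hochberg, over the 15415 genes) below 0.05 and the log2 fold change was beyond 0.5 in either direction, and "rose" and "fell" are used below for such calls only. STMN2, STMN4, NEFM, INA, PRPH and GAP43 rose after PB and STMN1 fell, against 16.9% of all tested genes that rose and 11.3% that fell. After RA, STMN4 rose and NEFH fell, where 10.8% of all genes rose and 2.54% fell. After PB+RA the same 6 genes rose and STMN1 fell, beside 24% and 17.9% of all genes. When RA was added to PB, STMN4 alone rose (9.02% of all genes). Without a replicate block 0 of the 10 fell in edgeR or in DESeq2 (7.27% of all genes fell in edgeR). In edgeR STMN3 was lower at an adjusted p of 4.79e-04, under the fold minimum. NEFH and GAP43, also without the block, were lower at an unadjusted p below 0.05 only, with adjusted p of 0.104 and 0.0688. A replicate block takes the replicate number of each sample into account. With it NEFH fell in PB+RA against DMSO and against PB as well, and no other call of the 10 genes changed. When PB was added to RA, those 6 genes rose again (14.9% of all genes) and STMN1 fell (14.1%). The median log2 fold change of the 10 genes was 0.69 after PB, -0.09 after RA and 0.68 after PB+RA, and that of all tested genes was 0.03, 0.01 and 0.04. With no fold minimum, 4 of the 10 genes would be called after RA (35.2% of all genes, in either direction), 2 when RA was added to PB (38.1%) and 2 for the interaction described below (5.29%). These comparisons share samples, the DMSO samples among them, and are not independent of each other.

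**Figure D1:**
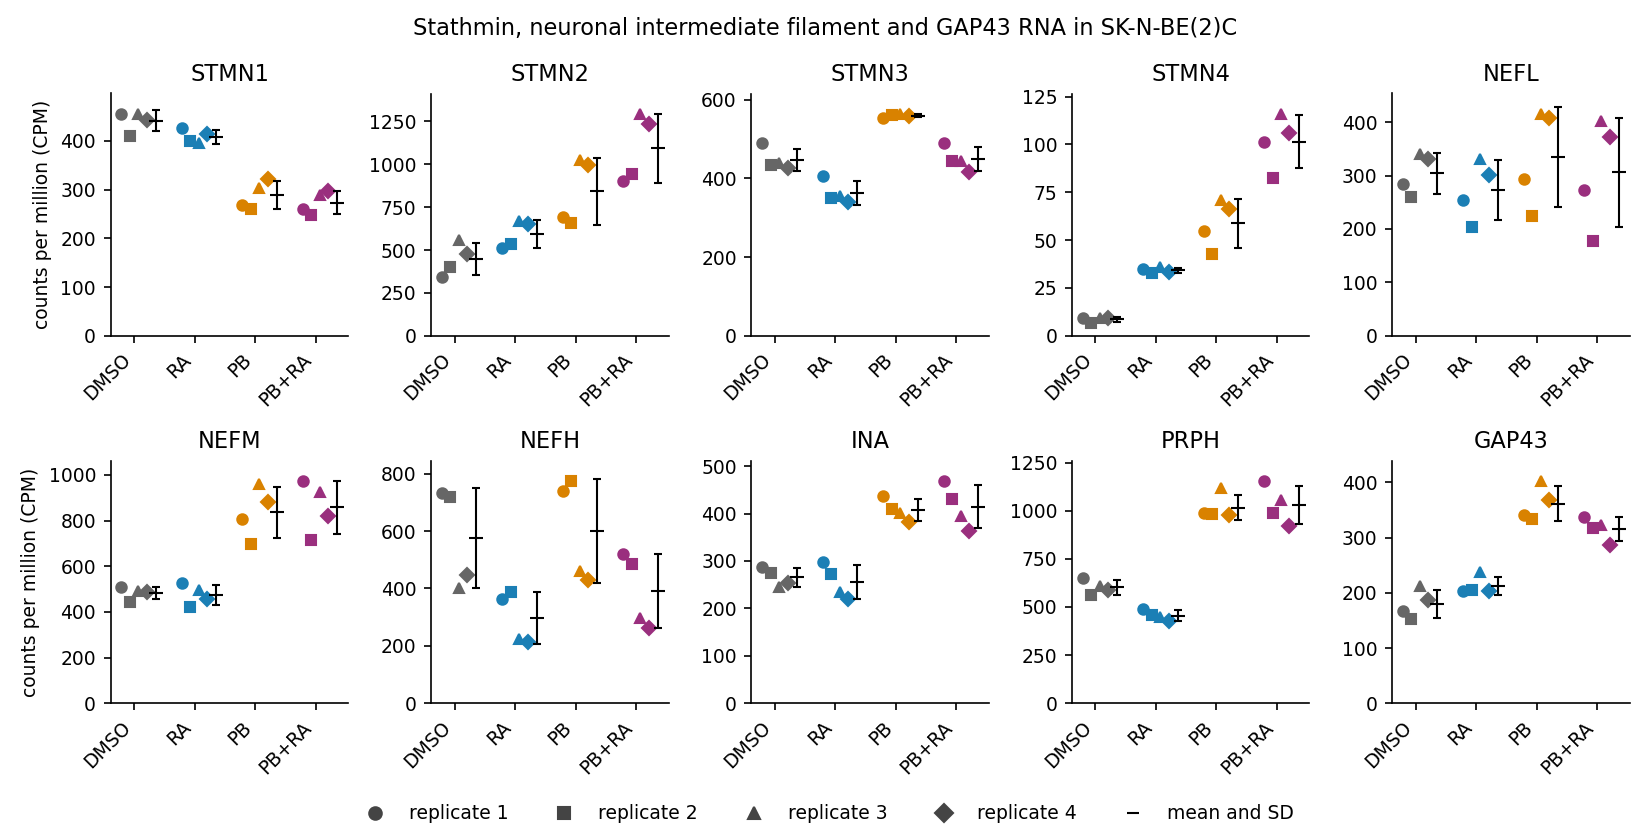
Level of each gene in each of the 16 samples, in CPM from 0, with a marker shape per replicate number and a bar for the mean and SD (n = 4). STMN4 went from 8.56 CPM in DMSO to 102 CPM in PB+RA, STMN1 is the only panel in which both PB groups lie below DMSO and RA, and the NEFH points of replicates 1 and 2 lie above those of replicates 3 and 4 in every group.

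**Figure D2:**
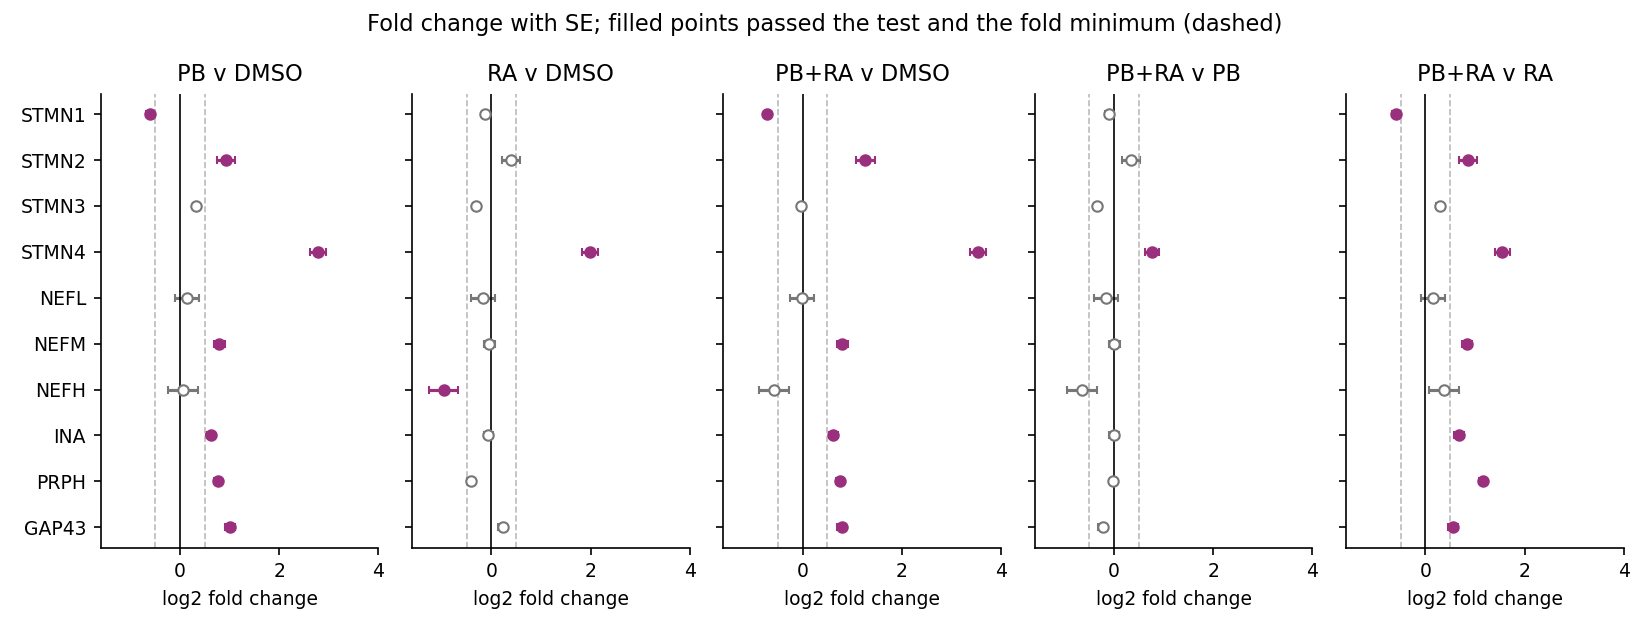
Log2 fold change with its standard error for each gene in the 5 comparisons, with filled points for calls and dashed lines at the fold minimum of 0.5. The 6 genes that rose with PB alone also rose when PB was added to RA, and STMN4 is the only filled point where RA was added to PB.

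STMN1, the cytosolic stathmin of dividing cells, lies on chromosome 1 (26210672-26233482, minus strand, GRCh37). Its level was 455, 410, 456 and 444 CPM in DMSO replicates 1 to 4, 427, 399, 395 and 413 CPM in RA, 268, 260, 303 and 321 CPM in PB and 260, 249, 288 and 297 CPM in PB+RA. All 8 samples given PB lay below all 8 samples without it, and the RA samples overlapped DMSO. STMN1 fell after PB (log2 fold change -0.61, SE 0.071, adjusted p = 2.01e-06) and after PB+RA (-0.72, SE 0.071, adjusted p = 1.5e-07). RA alone gave -0.12 (adjusted p = 0.204), with an approximate 95% interval of -0.26 to 0.02. Added to RA, PB lowered STMN1 by a log2 of -0.60 (adjusted p = 2.38e-06), a call that was lost in replicates 3 and 4 taken alone, where the value was -0.48, under the fold minimum. The pseudogenes STMN1P1 and STMN1P2 had mean levels of 0.223 and 0.00833 CPM, against 353 CPM for STMN1.

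STMN2 (chromosome 8, 80523352-80578393, plus strand) was the most abundant stathmin in counts in the samples given PB. Its level was 345, 399, 560 and 478 CPM in DMSO, 514, 533, 670 and 652 CPM in RA, 695, 655, 1025 and 998 CPM in PB, and 900, 941, 1296 and 1233 CPM in PB+RA. Neither PB group overlapped DMSO, the RA group overlapped DMSO, and PB overlapped both RA and PB+RA. STMN2 rose after PB (log2 fold change 0.92, SE 0.18, adjusted p = 6.12e-04), after PB+RA (1.26, SE 0.19, adjusted p = 2.27e-05) and when PB was added to RA (0.86, SE 0.18, adjusted p = 0.001). RA alone gave 0.40 (adjusted p = 0.102) and RA added to PB gave 0.34 (adjusted p = 0.157). Between samples that share a replicate number the RA sample was above its DMSO sample in 4 of 4 pairs, by 1.20 to 1.49-fold. In the fit with a replicate block the RA difference had an adjusted p of 2.3e-06 and a log2 of 0.42, which stayed under the fold minimum. RA added to PB gave 0.35 in that fit (adjusted p = 1.29e-05), also under the fold minimum.

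STMN3, on chromosome 20 (62271058-62289035, minus strand), moved in opposite directions with the 2 drugs, each time by less than the fold minimum. It was counted at 489, 435, 440 and 428 CPM in DMSO, 407, 351, 354 and 340 CPM in RA, 554, 562, 565 and 560 CPM in PB and 491, 444, 444 and 417 CPM in PB+RA. The PB samples were all above DMSO and the RA samples all below it, and PB+RA overlapped DMSO. The log2 fold changes were 0.32 for PB (SE 0.064, adjusted p = 4.38e-04), -0.31 for RA (SE 0.064, adjusted p = 0.00143) and -0.02 for PB+RA (adjusted p = 0.751). Added to PB, RA gave -0.35 (adjusted p = 4.79e-04), and added to RA, PB gave 0.29 (adjusted p = 0.00121).

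STMN4 (chromosome 8, 27092825-27115937, minus strand) had the largest fold changes of the 10 genes and the lowest level in DMSO. It was at 9.18, 6.48, 9.49 and 9.10 CPM in DMSO, at 34.8, 32.6, 35.8 and 33.4 CPM in RA, at 55.0, 42.6, 71.1 and 66.3 CPM in PB and at 101, 82.6, 116 and 106 CPM in PB+RA. The 4 groups did not overlap and stood in the order DMSO, RA, PB and PB+RA. STMN4 rose 3.95-fold after RA (log2 fold change 1.98, SE 0.16, adjusted p = 2.87e-07), 6.85-fold after PB (2.78, SE 0.16, adjusted p = 2.3e-09) and 11.6-fold after PB+RA (3.53, SE 0.16, adjusted p = 3.03e-11). It was the single gene of the 10 that rose when RA was added to PB (0.76, SE 0.14, adjusted p = 6.51e-04), and it rose by a log2 of 1.55 when PB was added to RA (adjusted p = 2.6e-07).

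The make-up of the stathmin RNA was compared per kilobase of the canonical transcript, as a share of the 4 genes' sum within each sample. In DMSO, STMN1 held 41.2% ± 2.00 (SD, n = 4), STMN2 31.3% ± 4.73, STMN3 26.9% ± 2.78 and STMN4 0.495% ± 0.0633. After PB the share of STMN1 was 21.9% ± 1.10 and that of STMN2 47.8% ± 4.54, and after PB+RA they were 18.9% ± 0.856 and 56.7% ± 4.12. STMN1 thus had the highest mean share in DMSO and the lowest but STMN4 in PB, and in PB+RA its range (17.7 to 19.7%) overlapped that of STMN3 (17.1 to 23.9%). After RA alone the shares of STMN1 and STMN2 were 36.8% ± 2.06 and 40.3% ± 4.03, and their ranges overlapped. STMN4 held 2.74% in PB, 1.91% in RA and 4.34% in PB+RA. The order of genes depends on the length used: over all annotated exons, which sum to 6247 bases for STMN1 against 1443 in its canonical transcript, STMN1 held 16.2% in DMSO and 5.81% in PB+RA, and STMN2 was highest in all 4 groups. Within a sample, the STMN2 to STMN1 count ratio was 0.759 to 1.23 in DMSO, 1.20 to 1.70 in RA, 2.52 to 3.38 with PB and 3.46 to 4.50 with PB+RA, so the PB groups did not overlap the groups without PB.

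**Figure D3:**
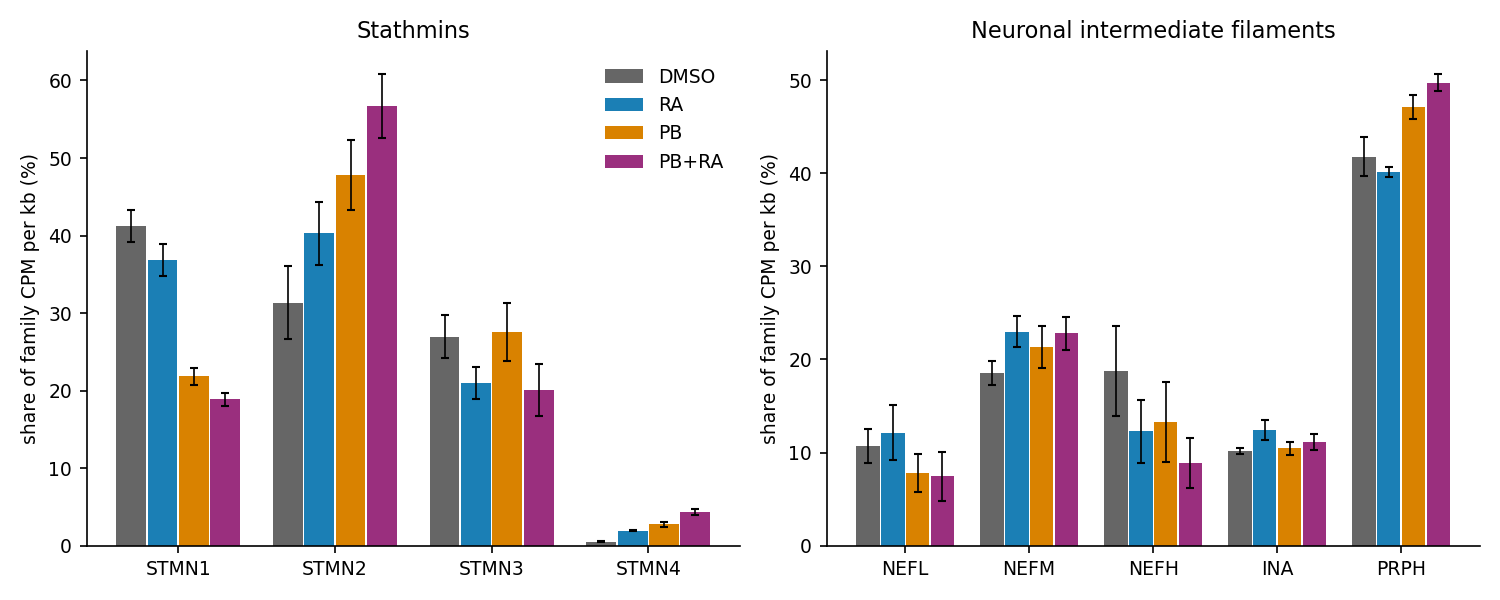
Share of each gene in the length-scaled RNA of its family, in percent of the summed CPM per kilobase of canonical transcript, as bars from 0 with the SD over 4 replicates. The STMN1 share is lower and the STMN2 share higher in both PB groups, and among the filament genes PRPH holds 40.1 to 49.7% in every group.

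NEFL, the light subunit on which neurofilaments are built (chromosome 8, 24808468-24814235, minus strand), was not called in any comparison. Its level was 284, 261, 341 and 332 CPM in DMSO, 255, 203, 332 and 301 CPM in RA, 293, 223, 416 and 407 CPM in PB and 273, 178, 402 and 372 CPM in PB+RA. All 4 groups overlapped, and the difference between replicates was larger than that between groups. The log2 fold change was 0.14 for PB (SE 0.24, adjusted p = 0.652), with an interval of -0.35 to 0.63, -0.17 for RA (adjusted p = 0.631) and -0.02 for PB+RA (adjusted p = 0.948). With a replicate block, which takes up the difference between replicates, the PB value was 0.10 with a smaller SE of 0.096 (adjusted p = 0.387). In replicates 3 and 4 alone it was 0.25 (adjusted p = 6.98e-04), under the fold minimum, and in replicates 1 and 2 alone -0.09 (adjusted p = 0.805).

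NEFM, the medium subunit, is the neighbour of NEFL on chromosome 8 (24771271-24776611, plus strand). It was counted at 510, 445, 492 and 488 CPM in DMSO, 525, 421, 495 and 456 CPM in RA, 806, 699, 960 and 883 CPM in PB and 974, 714, 925 and 822 CPM in PB+RA. All samples with PB were above all samples without it, and RA overlapped DMSO as PB+RA overlapped PB. NEFM rose after PB (log2 fold change 0.79, SE 0.11, adjusted p = 1.06e-05), after PB+RA (0.80, SE 0.11, adjusted p = 5.19e-06) and when PB was added to RA (0.84, SE 0.11, adjusted p = 5.79e-06). RA gave -0.04 alone (adjusted p = 0.811) and 0.01 when added to PB (adjusted p = 0.967), with intervals of -0.25 to 0.17 and -0.20 to 0.22.

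NEFH, the heavy subunit (chromosome 22, 29876207-29887379, plus strand), fell after RA and was not called after PB. Its level was 731, 718, 403 and 447 CPM in DMSO, 365, 386, 223 and 213 CPM in RA, 739, 775, 460 and 430 CPM in PB and 519, 485, 297 and 263 CPM in PB+RA. The RA samples were all below DMSO, but the highest RA sample lay close to the lowest DMSO sample. The fall after RA had a log2 of -0.96 (SE 0.30, adjusted p = 0.022). This call was lost when DMSO replicate 1 or 2 or RA replicate 3 or 4 was left out, with adjusted p of 0.0584, 0.0625, 0.0585 and 0.0599 and log2 values of -0.87 to -0.84. With a replicate block the value was -0.97 (adjusted p = 1.3e-12, where 3.3% of all genes fell), and NEFH also fell in replicates 1 and 2 alone (-0.96, adjusted p = 1.54e-06) and in replicates 3 and 4 alone (-1.02, adjusted p = 2.67e-08). PB alone gave 0.06 (adjusted p = 0.873). Added to RA, PB gave 0.38 (adjusted p = 0.302), which was not called. With a replicate block that value was 0.37 (adjusted p = 5.66e-07), under the fold minimum.

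The spread of NEFH within groups followed the replicate numbers. In each of the 4 groups, replicates 1 and 2 were above replicates 3 and 4, by 1.70 to 1.79-fold in the mean. Within a replicate number the RA sample was at 0.476 to 0.552 of its DMSO sample, the PB+RA sample at 0.588 to 0.736 of its DMSO sample and at 0.612 to 0.702 of its PB sample, lower in 4 of 4 pairs each time. Without the block PB+RA gave -0.58 against DMSO (SE 0.30, adjusted p = 0.0985) and -0.65 against PB (SE 0.30, adjusted p = 0.104), neither called. With a replicate block NEFH fell in both, by a log2 of -0.59 against DMSO (adjusted p = 2.64e-10; 18.6% of all genes fell in that fit) and -0.66 against PB (adjusted p = 3.68e-10; 8.3% of all genes). It also fell within each set of replicates, by -0.56 against DMSO in replicates 1 and 2 (adjusted p = 8.32e-06) and -0.67 in replicates 3 and 4 (adjusted p = 3.37e-07), and by -0.61 and -0.69 against PB.

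STMN2, NEFL and INA also followed the replicate numbers. STMN2 was 1.26 to 1.50-fold and NEFL 1.24 to 1.71-fold higher in replicates 3 and 4 than in replicates 1 and 2, in all 4 groups and without overlap. INA was 1.08 to 1.26-fold higher in replicates 1 and 2, again in all 4 groups. NEFH and NEFL, whose proteins share a filament, thus differed between the sets of replicates in opposite directions, and the NEFH to NEFL count ratio in DMSO was 2.58, 2.75, 1.18 and 1.35 in replicates 1 to 4. A split between these sets was not particular to these genes. Over all genes compared, the chi-square per gene (difference against counting error) between replicates of a group was 2.95 to 9.02 within a set. Between the sets it was 11.6 to 28.7. The share of all genes that split as these members did was not counted. What distinguishes the passages behind the replicate numbers is not given in the sources used here.

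**Figure D4:**
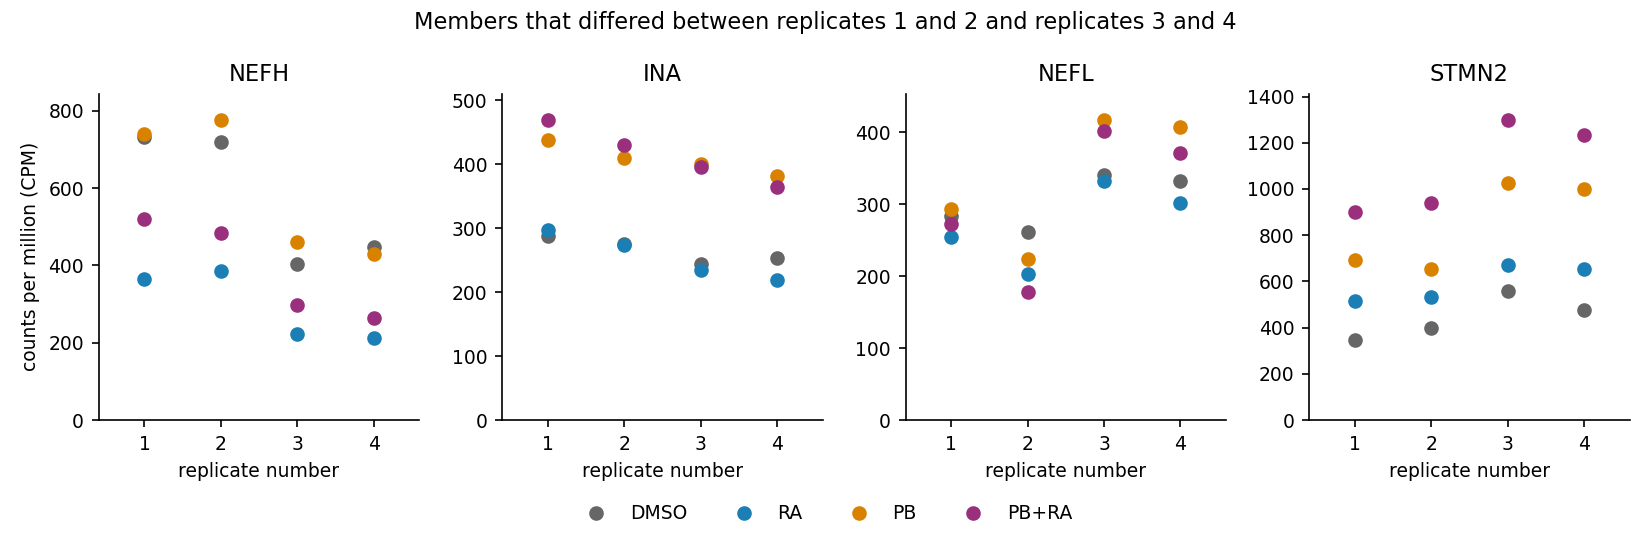
Level of NEFH, INA, NEFL and STMN2 in CPM from 0 against replicate number, with a colour per treatment. NEFH and INA lie higher in replicates 1 and 2 and NEFL and STMN2 in replicates 3 and 4 in all 4 treatments, while for NEFH the RA sample is the lowest and the PB+RA sample the next at each number.

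INA, on chromosome 10 (105036895-105050103, plus strand), followed PB and not RA. It was at 288, 275, 244 and 253 CPM in DMSO, 298, 273, 234 and 219 CPM in RA, 438, 410, 400 and 381 CPM in PB and 469, 430, 396 and 364 CPM in PB+RA. The groups with PB were separate from the groups without it and overlapped each other. INA rose after PB (log2 fold change 0.62, SE 0.095, adjusted p = 4.14e-05), after PB+RA (0.62, SE 0.095, adjusted p = 2.53e-05) and when PB was added to RA (0.68, SE 0.095, adjusted p = 1.65e-05), and RA alone gave -0.06 (adjusted p = 0.663). In the gene models used here INA shares 452 exonic bases with NT5C2 on the opposite strand, whose level was 60.1 to 93.9 CPM over the samples, and the strand setting of the counting was not given. Antisense transcript models share 1872 exonic bases with PRPH, 781 with NEFL, 960 with NEFM and 343 with NEFH, and their levels were not measured here.

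PRPH, which encodes peripherin, the filament protein of peripheral neurons, is on chromosome 12 (49688930-49692469, plus strand). Its level was 650, 560, 607 and 587 CPM in DMSO, 490, 456, 450 and 425 CPM in RA, 989, 981, 1116 and 979 CPM in PB and 1154, 989, 1053 and 920 CPM in PB+RA. RA samples were all below DMSO, and both PB groups were above DMSO and overlapped each other. PRPH rose after PB (log2 fold change 0.76, SE 0.073, adjusted p = 2.91e-07), after PB+RA (0.75, SE 0.073, adjusted p = 1.42e-07) and, by 2.23-fold, when PB was added to RA (1.16, SE 0.074, adjusted p = 1.97e-09). RA alone gave -0.41 (SE 0.073, adjusted p = 4.72e-04), under the fold minimum, and RA added to PB gave -0.01 (adjusted p = 0.927).

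Among the 5 filament genes, per kilobase of canonical transcript, PRPH had the largest share in every group, at 41.8% ± 2.12 (SD, n = 4) in DMSO, 40.1% ± 0.546 after RA, 47.1% ± 1.29 after PB and 49.7% ± 0.921 after PB+RA. NEFM held 18.5% ± 1.27 in DMSO and 21.3 to 23.0% in the treated groups. NEFH held 18.8% ± 4.86 in DMSO, 13.3% ± 4.26 in PB, 12.3% ± 3.37 in RA and 8.91% ± 2.70 in PB+RA, and its range in PB+RA (6.62 to 11.9%) lay below that in DMSO (13.9 to 23.8%). INA stayed between 10.2% and 12.4% in the mean, and NEFL between 7.48% and 12.2%. The NEFH to NEFM count ratio was 0.820 to 1.61 in DMSO, 0.479 to 1.11 in PB, 0.450 to 0.916 in RA and 0.320 to 0.679 in PB+RA, so of the treated groups PB+RA alone did not overlap DMSO. Within a replicate number the ratio was below that of DMSO in 4 of 4 pairs for each of the 3 treatments. The NEFM to NEFL ratio was 1.44 to 1.80 in DMSO and 2.17 to 3.13 in PB, with no overlap.

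GAP43 (chromosome 3, 115342357-115440337, plus strand) rose in each comparison that differed by PB. Its level was 167, 153, 212 and 187 CPM in DMSO, 203, 206, 237 and 203 CPM in RA, 342, 334, 402 and 369 CPM in PB and 337, 318, 322 and 286 CPM in PB+RA. Both PB groups were above all samples without PB, and RA overlapped DMSO. GAP43 rose 2.01-fold after PB (log2 fold change 1.01, SE 0.094, adjusted p = 2e-07), 1.72-fold after PB+RA (0.79, SE 0.094, adjusted p = 1.49e-06) and 1.47-fold when PB was added to RA (0.56, SE 0.093, adjusted p = 9.88e-05). The last call lies near the fold minimum and was lost without PB+RA replicate 1 (log2 0.50, adjusted p = 6.74e-04) and in replicates 3 and 4 alone (0.46). RA gave 0.23 alone (adjusted p = 0.0665) and -0.22 when added to PB (adjusted p = 0.0688). With a replicate block these were 0.23 (adjusted p = 0.00558) and -0.22 (adjusted p = 0.00794), both under the fold minimum. In 4 of 4 pairs of one replicate number the PB+RA sample was below its PB sample, at 0.777 to 0.986 of it.

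Whether the 2 drugs combined as the sum of their log2 changes was tested by the interaction, the PB effect with RA minus the PB effect without it. STMN4 was the only one of the 10 genes called, below the sum, with a log2 of -1.22 (SE 0.21, adjusted p = 0.00344), where 3.02% of all genes were called below and 0.415% above. On the linear scale its sign was the other one. DMSO plus the changes of both single drugs came to 84.3 CPM, DMSO times both folds to 234 CPM, and 102 CPM was observed. The excess over the first of these was 20.8, 13.9, 18.7 and 15.4 CPM in replicates 1 to 4. The mean of STMN4 in PB+RA thus lay above the level from adding the single changes and below that from multiplying the single folds.

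PRPH and GAP43 had interactions that were not called. For PRPH it was 0.40 (SE 0.10, adjusted p = 0.0334), under the fold minimum, and PB+RA exceeded DMSO plus the single changes by 325, 111, 94.8 and 104 CPM in replicates 1 to 4. The mean excess was 159 CPM, and 103 CPM without replicate 1. For GAP43 it was -0.45 (SE 0.13, adjusted p = 0.0572), inside the fold minimum, and its adjusted p was 0.0019 with the replicate block. PB+RA lay below DMSO plus the single changes in 4 of 4 replicates, by a mean difference of -78.2 CPM. Without DMSO replicate 3 the GAP43 interaction was called (-0.51, adjusted p = 0.0259). The other 7 genes had interactions between -0.06 and 0.32 with adjusted p of at least 0.775, and that of NEFH (0.32) had an adjusted p of 0.00234 with the replicate block, under the fold minimum.

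**Figure D5:**
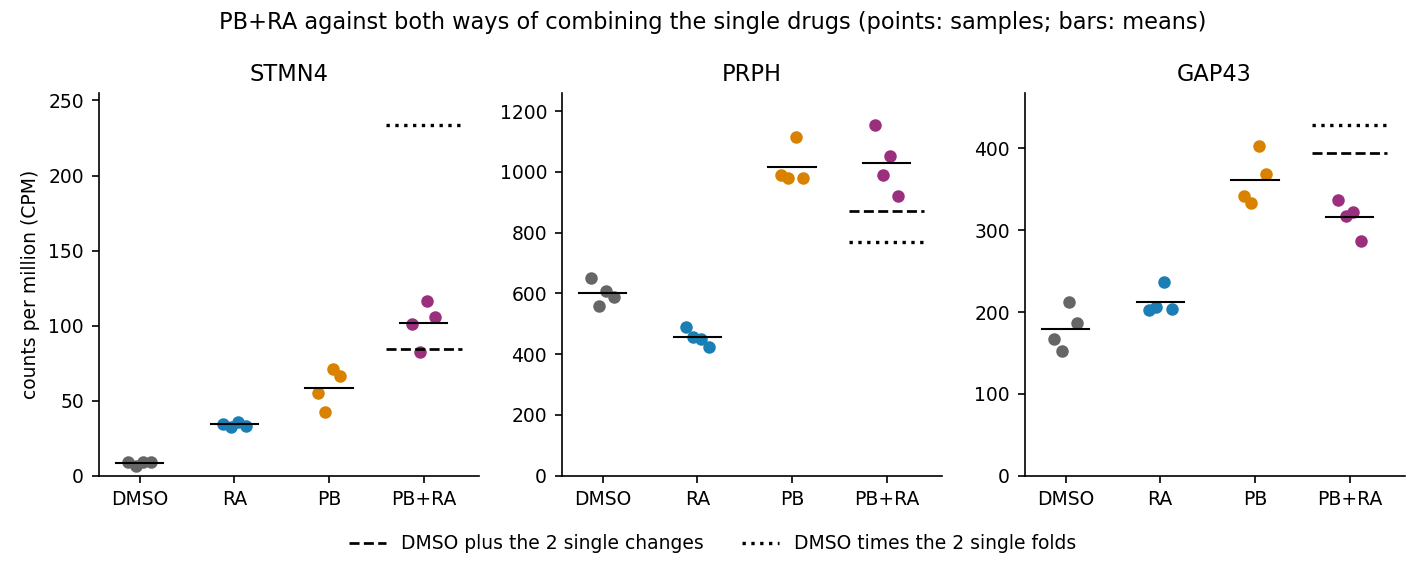
Level of STMN4, PRPH and GAP43 in CPM from 0 in each sample (points) with group means (bars), and for PB+RA DMSO plus the 2 single changes (dashed) and DMSO times the 2 single folds (dotted). The PB+RA mean of STMN4 lies between the 2 lines, that of PRPH above both and that of GAP43 below both.

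The genes most like a member were those with the smallest distance in the 3 log2 fold changes against DMSO, among 10001 candidates whose mean reached 10 CPM. For STMN4 they were GPR83, a G protein-coupled receptor (distance 0.22, with 2.66 for PB, 1.83 for RA and 3.41 for PB+RA), DCX, the microtubule-binding protein of migrating neurons (0.28, with 2.77, 2.26 and 3.57), and TMEM59L (0.36). For STMN2 they were ZER1 (0.05), WDR45 (0.06) and EVI5L (0.07), for STMN1 they were TUSC1 (0.03), STT3A (0.03) and DOT1L (0.05), and for GAP43 they were RUNDC3B (0.09), MTCO3P12 (0.09) and MICU3 (0.10). MTCO3P12 is a pseudogene copy of a mitochondrial gene, so its reads are uncertain. Among the 10 genes themselves, NEFM and INA were each other's nearest (0.25), and the nearest to STMN4, which was STMN2, lay at 3.33. These distances are descriptions over 16 samples that all comparisons share.

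Of 23 tested genes for other growth cone proteins, 6 rose after PB, 5 rose after RA, and 11 rose and 3 fell after PB+RA, and the others were not called. Of all tested genes, 16.9% rose and 11.3% fell after PB, 10.8% and 2.54% after RA, and 24% and 17.9% after PB+RA. The median log2 fold change of the growth cone list after PB+RA was 0.39. RUFY3, which acts in neuronal polarity, rose from 60.0 to 180 CPM (log2 fold change 1.56, SE 0.089), and DPYSL4, a collapsin response mediator, rose from 73.7 to 216 CPM (1.52, SE 0.082). The falls after PB+RA were those of DPYSL5, another collapsin response mediator, from 200 to 92.5 CPM (-1.14, SE 0.20), of GPM6B, a membrane glycoprotein, from 131 to 84.6 CPM (-0.66, SE 0.064), and of the actin-bundling FSCN1 (-0.51), which was named after its value was seen, to complete the 3.

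Of 10 tested genes for other intermediate filaments, 5 fell after PB (11.3% of all genes) and the rest were not called. After RA 3 rose and 3 fell (10.8% and 2.54% of all genes), and after PB+RA 2 rose and 5 fell (24% and 17.9%). The lamins of the nuclear envelope LMNB1 and LMNB2 had the largest falls after PB+RA among those at 10 CPM or more, from 239 to 33.5 CPM (log2 fold change -2.86, SE 0.16) and from 390 to 154 CPM (-1.37, SE 0.057). KRT18, a keratin of simple epithelia, rose from 9.37 to 34.8 CPM (1.87, SE 0.28), and it was at 41.3 CPM after RA alone.

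Of 16 tested kinase, kinase activator and phosphatase genes that act on stathmins, GAP43 or neurofilaments, 3 rose and 3 fell after PB. The shares of all genes there were 16.9% and 11.3%. After RA 3 rose and 2 fell (10.8% and 2.54% of all genes), and after PB+RA 6 rose and 5 fell (24% and 17.9%). The mitotic kinases AURKB and CDK1, which phosphorylate STMN1, fell after PB+RA from 97.9 to 9.93 CPM (log2 fold change -3.33, SE 0.14) and from 164 to 26.6 CPM (-2.66, SE 0.12). MAPK10, the neuronal JNK, rose from 12.7 to 40.9 CPM (1.66, SE 0.10), and PRKCE, a protein kinase C, rose from 43.6 to 101 CPM (1.19, SE 0.077). Of 6 genes for palmitoyl transferases and thioesterases, 1 rose after PB and after PB+RA (16.9% and 24% of all genes). It was the thioesterase LYPLA2 (66.1 to 110 CPM after PB+RA, 0.71, SE 0.081).

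Among 7 RNA-binding genes whose proteins act on GAP43, STMN2 or neurofilament transcripts, 2 rose after PB (16.9% of all genes). After RA 1 fell (2.54% of all genes), and after PB+RA 1 rose and 3 fell (24% and 17.9%). ELAVL4 (HuD), which stabilises GAP43 RNA, rose from 188 to 316 CPM after PB+RA (log2 fold change 0.72, SE 0.11). TARDBP (TDP-43), which guards STMN2 splicing, fell from 234 to 148 CPM (-0.69, SE 0.047), and KHSRP fell from 537 to 340 CPM (-0.69, SE 0.049). Of 6 genes for REST, the repressor of neuronal genes, and its corepressors, 1 fell after PB and 1 rose after RA. The shares of all genes were 11.3% and 10.8%. After PB+RA 2 fell (17.9%), namely HDAC1 (70.2 to 42.6 CPM, -0.75, SE 0.097) and RCOR1 (98.2 to 65.5 CPM, -0.61, SE 0.075). The gene that rose after RA, named after its value was seen, was REST itself, by a log2 of 1.01, and it was low, at a mean of 8.45 CPM over all samples.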

How the data were processed

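RNA was measured in 16 samples, grouped by agent from the sample titles. Per the authors' methods, reads from poly(A)-selected, directional paired-end libraries were trimmed and aligned to hg19. The submitters' processing notes name Trim Galore 0.6.4 and STAR 2.6.1d, and the methods name a different patch release of STAR. The deposited counts are read counts per gene, with no normalization. The annotation and strand column are not given in the sources used here, so counts of genes with antisense partners (INA, PRPH and the NEF genes overlap such models) are uncertain. The deposited CPM were made by the authors by scaling each sample's counts to a total of 1e+06, within 5e-12 of the count divided by that total. Another deposited table, not used, holds the authors' DESeq2 1.32.0 fold changes and p-values.

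The counts were tested in R 4.3.3 with edgeR 4.0.16 (filterByExpr, TMM, all 16 samples in 1 quasi-likelihood fit, robust dispersions, a coefficient per group, Benjamini-Hochberg adjustment over 15415 genes). SE was taken as the size of the log2 fold change over the root of its F statistic. Intervals are approximate, since they take a fixed multiple of this SE to each side. CPM in the text are the deposited values. Totals were 19.5 to 31.6 M counts, and every pair of replicates differed by more than counting error (chi-square per gene of at least 2.95), so no library was taken for a copy of another. That value reached 9.02 between replicates 1 and 2 or 3 and 4 of a group. Between the 2 sets it was 11.6 to 28.7, and the main fit does not model this split. The procedure was tested on simulated data, which were drawn with no effect of replicate number and so do not cover that feature.

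The members and lists were chosen with earlier results of these data known. All members were named. From each list (growth cone proteins, other intermediate filament genes, kinases and phosphatase, palmitoyl transferases and thioesterases, RNA-binding proteins, REST and its corepressors), at most the 2 largest rises and 2 largest falls called in PB+RA against DMSO at a mean of 10 CPM or more were named, and FSCN1 and REST, outside that rule, are given with their list counts. Marker lists were adrenergic, mesenchymal, Schwann and haematopoietic, and a mesenchymal and a haematopoietic marker were not analysed here.

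Same-numbered samples of different groups deviated together from their group means in all 24 pairs (r 0.330 to 0.573 across genes). In 72 pairs of different numbers r was -0.492 to 0.447, which overlaps that range. The numbers come from the titles. These ranges do not tell pairing by single number from the split between the sets of replicates. The replicate block was an alternative, as were RLE factors, DESeq2 1.42.0, other filters, GC content and length correction, leaving out each sample, each set of replicates alone, no fold minimum and fits of only the groups compared. Coordinates are from GENCODE v44 models mapped to GRCh37, and promoter windows from RefSeq GRCh38.p14.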

Additional observations from a re-analysis of the deposited data

Results flagged for a closer look

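In DMSO, STMN4 in replicate 2 (6.48 CPM) stood apart from the other 3 samples (9.10 to 9.49 CPM). In PB, PRPH in replicate 3 (1116 CPM) stood apart from the others (979 to 989 CPM), and in RA, GAP43 in replicate 3 (237 CPM) did so from the others (203 to 206 CPM). By Dixon's criterion these were 3 of 40 groups of 4 samples, where chance gives about 1 in 20.

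The PB effect with RA differed from that without it by a log2 of -1.22 for STMN4 (SE 0.21, adjusted p = 0.00344 in edgeR) and 0.40 for PRPH (SE 0.10, adjusted p = 0.0334).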

How the results depend on the processing

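The limits of these results are the spread between replicate numbers and the fold minimum, since even the lowest member count was 159. Of 650 values of the 10 genes under other settings, 630 stayed on the same side of the call, 2 lost and 18 gained a call, and 22 uncalled values changed sign. Leaving out single samples gave 960 values, of which 5 lost and 1 gained a call. The number called in PB+RA against PB went from 1 to 2 with the replicate block, with GC and length correction and the replicate block, with no fold minimum, and in replicates 1 and 2 or 3 and 4 alone. With no fold minimum 4 members were called after RA and 2 for the interaction, where 35.2% and 5.29% of all genes were called, and leaving out single samples gave 1 to 2 called for RA and 1 to 2 for the interaction. The replicate block added the 2 NEFH calls against DMSO (-0.59) and PB (-0.66) and changed no other of 60 member results. GC and length correction moved the median of all genes after RA by -0.11 (log2), with which PRPH was called after RA (-0.51), as it was in replicates 3 and 4 alone (-0.51), and NEFH after PB+RA (-0.73). On the linear scale, added after seeing the data, the STMN4 interaction was above 0 (17.2 CPM) instead of below it. DESeq2, RLE factors, the other filters and fits of only the groups compared changed no member's call.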
